A study of Mus musculus with 21 samples.

Results

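RNA levels were compared between all 14 tumours treated with BYL719 and 4 of the 7 vehicle tumours, those with a low level of Cnn1, which encodes calponin 1 of smooth muscle and myoepithelial cells. These 18 tumours were chosen from 21. The treated tumours, 7 labelled relapse and 7 labelled stable, were pooled. A vehicle tumour was kept when its Cnn1 level, as CPM (counts scaled to a fixed column total), was under 100, which held for vehicle 1, 3, 4 and 5. In those 4 tumours the Cnn1 level lay between 1.25 and 6.04 CPM, and in the 14 BYL719 tumours between 1.13 and 9 CPM. The values next to the threshold were 6.04 CPM in vehicle 3, on the inside, and 357 CPM in vehicle 7, on the outside, with 735 CPM in vehicle 6 and 749 CPM in vehicle 2. Thresholds of 10, 50, 200 and 300 CPM kept the same 4 tumours. Because Cnn1 chose the vehicle tumours, its level and those of other smooth muscle genes are descriptions, and no p-value here takes account of that choice.

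All tumours came from WAP-Cre/PIK3CA-H1047R mice, whose labelled tissue is tumour. In this model a recombinase driven by the promoter of the milk protein gene Wap acts in mammary epithelium, and the transgene encodes a mutant catalytic subunit of PI3K-alpha. The 3 labelled groups were BYL719 labelled relapse (n = 7), BYL719 labelled stable (n = 7) and DMSO, the vehicle (n = 7, of which 4 entered the comparison). The labels used here give no ages, doses or collection times. BYL719 is alpelisib, an inhibitor selective for PI3K-alpha.

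PI3K-alpha passes signals from insulin, IGF and ERBB receptors to the kinase AKT. AKT holds FOXO transcription factors out of the nucleus, and when it is inhibited FOXO factors raise the genes of receptors and adaptors upstream of PI3K, a well-known feedback. PI3K, AKT and mTORC1 also promote the activity of SREBP factors, which drive the genes of cholesterol and fatty acid synthesis.

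Total counts per tumour ranged from 13337848 to 24648463 in the 14 BYL719 tumours and from 21226564 to 22317907 in the 4 vehicle tumours. Each title holds a code that the labels leave unexplained. It took 9 values in the BYL719 tumours and 3 in the 4 vehicle tumours, with none in both, so code and treatment cannot be told apart. Nothing says that tumours with a shared code came from separate animals, and p-values then measure only the spread between these samples. The 20 genes of hormone receptors and luminal identity summed to between 2431 and 6357 CPM in BYL719 and between 2504 and 5220 CPM in vehicle tumours. A pair of libraries stood apart: vehicle 3, which was at least 10 times the next of the 4 vehicle tumours in 27 of the genes called lower, and stable 1, without which the number of genes called was 2692.

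The promoters of 3 genes from the 2 gene groups with the most calls are shown, picked after matches to short sequence forms were seen. Each is the RefSeq window of GRCm38.p6 from 250 bases before to 50 bases after the start of the gene, read 5′ to 3′ on the gene's strand. Msmo1, a sterol oxidase (chromosome 8, minus strand, 64733529 to 64733828), and Hmgcs1, the HMG-CoA synthase that opens the mevalonate pathway (chromosome 13, plus strand, 119690101 to 119690400), have in capitals a match to the sterol regulatory form TCACNCCA. Txnip, a thioredoxin-binding protein (chromosome 3, plus strand, 96557707 to 96558006), has in capitals a match to the forkhead form GTAAACA.
Msmo1: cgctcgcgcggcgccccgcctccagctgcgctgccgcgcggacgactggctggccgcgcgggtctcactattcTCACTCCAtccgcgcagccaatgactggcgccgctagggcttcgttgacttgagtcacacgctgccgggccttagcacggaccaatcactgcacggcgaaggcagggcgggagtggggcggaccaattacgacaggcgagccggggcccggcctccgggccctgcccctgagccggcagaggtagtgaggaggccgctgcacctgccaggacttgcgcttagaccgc
Hmgcs1: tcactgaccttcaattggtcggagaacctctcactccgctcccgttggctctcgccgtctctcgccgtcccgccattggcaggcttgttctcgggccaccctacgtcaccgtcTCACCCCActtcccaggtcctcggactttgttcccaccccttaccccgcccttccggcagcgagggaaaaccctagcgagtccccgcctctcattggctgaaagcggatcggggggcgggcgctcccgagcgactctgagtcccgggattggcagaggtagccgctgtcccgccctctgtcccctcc
Txnip: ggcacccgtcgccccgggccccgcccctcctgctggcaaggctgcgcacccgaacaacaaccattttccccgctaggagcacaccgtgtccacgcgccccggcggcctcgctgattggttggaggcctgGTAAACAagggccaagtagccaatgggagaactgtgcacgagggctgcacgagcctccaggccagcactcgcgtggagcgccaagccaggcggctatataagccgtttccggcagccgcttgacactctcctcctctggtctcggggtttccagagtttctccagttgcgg

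On either strand, TCACNCCA occurred in 3 of the 18 cholesterol gene promoters in the table (Msmo1, Hmgcs1 and Srebf2) and in 3.73% of 12419 promoters of genes tested. GTAAACA occurred in 4 of 24 promoters of PI3K feedback and FOXO genes (Bcl2l11, Txnip, Trim63 and Sesn1) and in 2.55% of the 12419. In all, 7 forms were searched, and the forms and promoters shown were picked after the matches were seen. The other forms were TCACNCCAC (1 of 18 promoters, against 1.1% of all), TCACCCCAC (1 of 18, 0.531%), CACGTG (3 of 18, 9.61%), ATTGG (16 of 18, 38.6%) and GTAAAC (4 of 24, 6.41%). TCACNCCAC and TCACCCCAC overlap TCACNCCA, and GTAAAC overlaps GTAAACA. A match describes letters in the window and not binding.

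Across 16081 genes tested with edgeR's quasi-likelihood F test, 1056 genes, or 6.57%, passed an adjusted p of 0.05 (Benjamini-Hochberg). Of these, 509 (3.17%) were higher and 547 (3.40%) were lower in BYL719 tumours. Counts of list members called, given below, are to be read beside these shares. The median log2 fold change over all genes tested was 0.04. An absolute log2 fold change of at least 1 held for 224 of the higher and 222 of the lower genes. For 211 genes (1.31%) all 14 BYL719 tumours lay above all 4 vehicle tumours, and for 249 genes (1.55%) all 14 lay below. Fold changes below are BYL719 over Cnn1-low vehicle on the log2 scale, with the standard error (SE), and adjusted p-values are those of this edgeR fit unless another is named.

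The number of calls depended on single tumours. It was 299 without vehicle 3, 385 without vehicle 1, 528 without vehicle 4 and 602 without vehicle 5. Without stable 1 it was 2692, and without any other BYL719 tumour it lay between 850 and 1191. In all 18 fits that left out 1 tumour, 185 of the 1056 genes were called in the same direction, 99 higher and 86 lower. Of these 185, 177 were also called in that direction with counts summed per title code, 163 with all 7 vehicle tumours, 143 with a skeletal muscle score as a covariate, 123 with the replicate number as a block and 53 with 1 tumour per title code. With all 7 vehicle tumours, 3326 genes were called, of which 725 were shared in direction with the 1056.

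**Figure D1:**
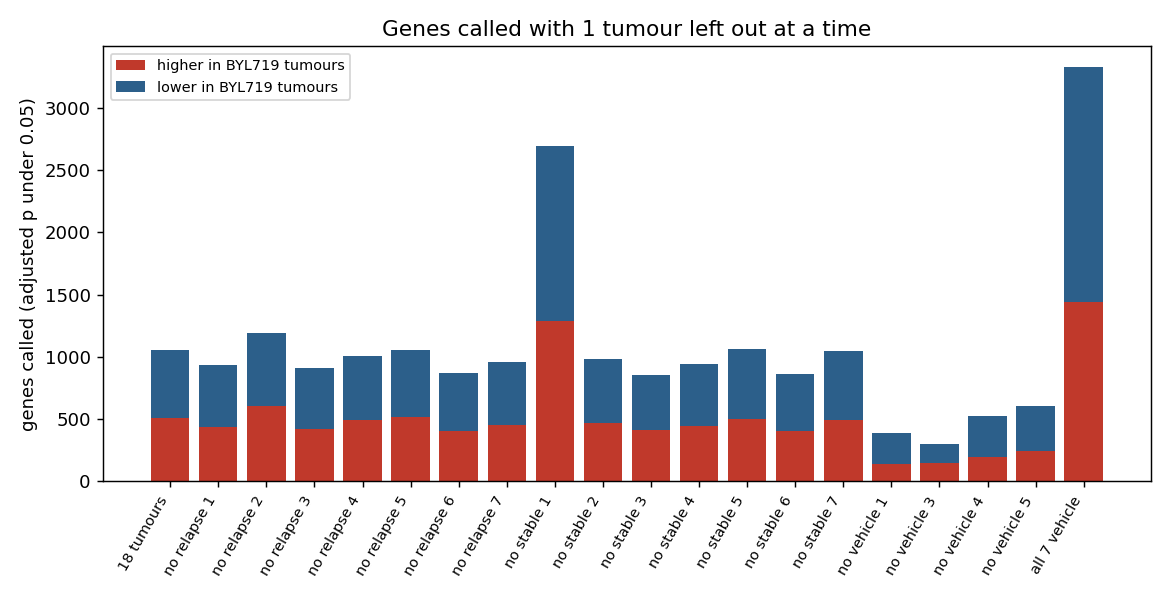
Number of genes called (adjusted p under 0.05, vertical axis) in the 18-tumour comparison, with 1 tumour left out at a time, and with all 7 vehicle tumours, each bar split into genes higher and lower in BYL719 tumours. The 4 bars that leave out a vehicle tumour stand at 299 to 602, under the 1056 of the full comparison, and the bar without stable 1 stands at 2692.

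The bar chart of left-out tumours shows that all 4 vehicle tumours weighed on the count. For many genes below it is therefore said whether the call held in every such fit, or tumours on which it rested are named. Where neither is said, the call need not have held in every fit. The choice to report calls in this way was made after the results of the fits were seen.

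No gene separated relapse from stable tumours in the same kind of test. Between them 0 genes were called by edgeR, while 1072 of 16081 genes (6.67%) had an unadjusted p under 0.05 and the lowest adjusted p was 0.231. Set against the same 4 vehicle tumours, 527 genes (3.28%) were called for relapse, 1.95% of genes higher and 1.32% lower, and 847 (5.27%) for stable tumours, 2.83% higher and 2.44% lower. These comparisons share the vehicle tumours, so their values are given side by side only.

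Skeletal muscle markers differed widely between tumours. Summed over 24 genes, their level was 299 to 30346 CPM in BYL719 tumours, median 6529 CPM, against 343, 267, 1428 and 1362 CPM in vehicle tumours. Every marker was detected in some vehicle tumour. By edgeR 0 of 23 tested were called, although their median log2 fold change was 3.70; 19 had an unadjusted p under 0.05, and 17 were called by DESeq2. Ckm, muscle creatine kinase, had 0.398 to 344 CPM in BYL719 tumours, median 50.5 CPM, against 0.459, 0.0946, 12.3 and 11.6 CPM in vehicle tumours, a change of 3.88 (adjusted p = 0.108). With the muscle score as a covariate 254 genes were called in all, with 8 higher and 1 lower among 29 feedback and FOXO genes and 7 lower among 25 cholesterol genes, both described next. In bulk tissue, more cells of a type and more RNA per cell cannot be told apart.

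Receptors and adaptors upstream of PI3K were higher in BYL719 tumours. Of 29 tested genes of PI3K feedback and FOXO targets, 15 were higher, 1 was lower and 13 did not pass, with a median log2 fold change of 0.59 beside 0.04 over all genes. The background was 3.17% of all genes higher and 3.40% lower. Of the 16 calls, 7 held in all 18 fits that left out 1 tumour: Txnip, Atg14, Pik3ip1, Irs2, Igf1r and Foxo4 were higher and Sesn2 was lower. Over those fits the number of higher members lay between 8 and 17. The list summed to 2764 to 4500 CPM in BYL719 and 2060 to 2289 CPM in Cnn1-low vehicle tumours. In vehicle 2, 6 and 7 it summed to 2773 to 3467 CPM, within the BYL719 range. With all 7 vehicle tumours, 15 members were higher and 2 were lower. With the replicate number as a block, 5 were higher and 1 was lower. With 1 tumour per title code 0 of the 29 were called by edgeR, with a median log2 fold change of 0.52. The 7 calls named above were among those lost there. The genes in this list were chosen with earlier results of these data known.

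Irs2 encodes an adaptor that links insulin and IGF receptors to PI3K. Its level in the 14 BYL719 tumours ran from 30.1 to 69.1 CPM with a median of 49.2 CPM, against 22.6, 17.5, 17 and 34.1 CPM in vehicle 1, 3, 4 and 5. All but 2 BYL719 tumours lay above vehicle 5, the highest of the 4 vehicle tumours. Irs2 rose by 1.1 (SE 0.22, adjusted p = 0.00758), and the call was lost with the replicate number as a block, with counts summed per title code, with 1 tumour per title code and with skeletal muscle as a covariate. Vehicle 2, 6 and 7, outside the comparison, had 16.6, 22.7 and 16.9 CPM.

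Igf1r, the IGF-1 receptor, ran from 128 to 338 CPM in BYL719 tumours, median 219 CPM, against 99.3, 117, 80.6 and 145 CPM in vehicle tumours. All but 1 of the BYL719 tumours lay above every vehicle tumour. The log2 fold change was 1.05 (SE 0.22, adjusted p = 0.0105). It was 1.09 in relapse and 1.00 in stable tumours against the shared vehicle tumours.

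Insr, the insulin receptor, ran from 159 to 247 CPM in BYL719 tumours, median 212 CPM, against 128, 164, 128 and 151 CPM in vehicle tumours. The ranges met at vehicle 3, with 2 BYL719 tumours below it. Insr rose by 0.55 (SE 0.12, adjusted p = 0.0121), but the adjusted p was 0.0566 without vehicle 1. Erbb3, the receptor that recruits PI3K in ERBB signalling, ran from 166 to 454 CPM in BYL719 tumours, median 292 CPM, against 180, 98.5, 177 and 139 CPM in vehicle tumours. Only 1 BYL719 tumour fell within the vehicle range. Erbb3 rose by 0.98 (SE 0.23, adjusted p = 0.0183), with an adjusted p of 0.0854 without vehicle 3 and 0.0574 without vehicle 5. Irs1, the second adaptor, was higher by 0.70 (adjusted p = 0.0211), which became 0.0984 without vehicle 1 and 0.0661 without vehicle 4.

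Pik3ip1, a membrane protein that inhibits PI3K, ran from 12.1 to 40.4 CPM in BYL719 tumours, median 25.1 CPM, against 5.87, 8.89, 6.03 and 10 CPM in vehicle tumours, with no overlap. The log2 fold change was 1.66 (SE 0.32, adjusted p = 0.00636). In vehicle 2, 6 and 7 the level was 31.9, 37.1 and 20.7 CPM, within the BYL719 range, and with all 7 vehicle tumours the gene was not called.

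Txnip, whose promoter is printed above, ran from 225 to 802 CPM in BYL719 tumours, median 491 CPM, against 115, 174, 151 and 177 CPM in vehicle tumours, again without overlap. It rose by 1.66 (SE 0.28, adjusted p = 0.00252), by 1.40 in relapse and by 1.88 in stable tumours. Vehicle 2, 6 and 7 had 407, 742 and 465 CPM, and Txnip was not called against all 7 vehicle tumours. Of the 509 genes called higher, 120 had vehicle 2, 6 and 7 all within the BYL719 range, and 155 had all 3 of them below all 14 BYL719 tumours. Of the 547 genes called lower, 114 had all 3 within the BYL719 range, and 135 had all 3 above all 14 BYL719 tumours. The same counts were not made over all genes tested, so these describe the called genes only.

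Among stress and growth regulators, Sesn3, a sestrin that restrains mTORC1, had 61.6 to 159 CPM in BYL719 tumours, median 94.6 CPM, against 50.1, 45.2, 57.2 and 43.4 CPM in vehicle tumours. All 14 BYL719 tumours lay above all 4. It rose by 1.05 (SE 0.24, adjusted p = 0.0167), with adjusted p-values of 0.0556, 0.0701 and 0.0562 without vehicle 1, 3 and 5. Its paralogue Sesn2, a target of the stress factor ATF4, went the other way. Sesn2 had 6.49 to 12.8 CPM in BYL719 tumours, median 9.77 CPM, against 17.8, 19.7, 18.3 and 16.1 CPM in vehicle tumours, and the groups did not overlap. It fell by 0.88 (SE 0.16, adjusted p = 0.00405).

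Smaller shifts without overlap were seen for Atg14, a subunit of the VPS34 autophagy complex, which rose by 0.61 (adjusted p = 0.00388), for Tsc1, an inhibitor of mTORC1, which rose by 0.51 (adjusted p = 0.00281), and for Foxo4, which rose by 0.53 (adjusted p = 0.0121). Gabarapl1, an ATG8 protein of autophagosomes, rose by 0.66 (adjusted p = 0.00704). All 4 held in every fit that left out 1 tumour. The calls of Atg14, Tsc1 and Foxo4 were lost with 1 tumour per title code, and that of Gabarapl1 with the replicate block. Foxo4 was also not called with muscle as a covariate. Cdkn1b, the CDK inhibitor p27, rose by 0.59 (adjusted p = 0.0155), with an adjusted p of 0.08 without vehicle 3. Of the remaining list members, Fbxo32, Pdk4, Ccng2 and Gadd45a were higher with log2 fold changes of 1.16, 2.19, 0.84 and 1.07. None of these calls held in every fit that left out 1 tumour. Fbxo32 and Pdk4 are expressed in skeletal muscle. With the muscle score as a covariate the change was 1.44 for Fbxo32 (adjusted p = 0.0206) and 1.6 for Pdk4 (adjusted p = 0.197).

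Members that did not pass included Foxo1, at -0.29 (adjusted p = 0.434), and Foxo3, at 0.06 (adjusted p = 0.842). Of 23 other components of PI3K, AKT and mTOR signalling, 2 were higher, Tsc1 among them, and none was lower, with a median of 0.09. Over all genes 3.17% were higher and 3.40% lower. Pik3ca itself, the gene of the drugged subunit, had a log2 fold change of 0.63 (adjusted p = 0.239), with 251 to 1384 CPM in BYL719 tumours and 359 to 506 CPM in vehicle tumours. Nf1, a RAS inhibitor and the subject of the series' title, had 208 to 598 CPM in BYL719 tumours, median 276 CPM, against 275, 272, 248 and 285 CPM in vehicle tumours. Its log2 fold change was 0.14 (95% interval -0.27 to 0.54, adjusted p = 0.702). Vehicle 2, 6 and 7 had 458, 448 and 366 CPM of Nf1, and with all 7 vehicle tumours its change was -0.196 (adjusted p = 0.429).

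**Figure D2:**
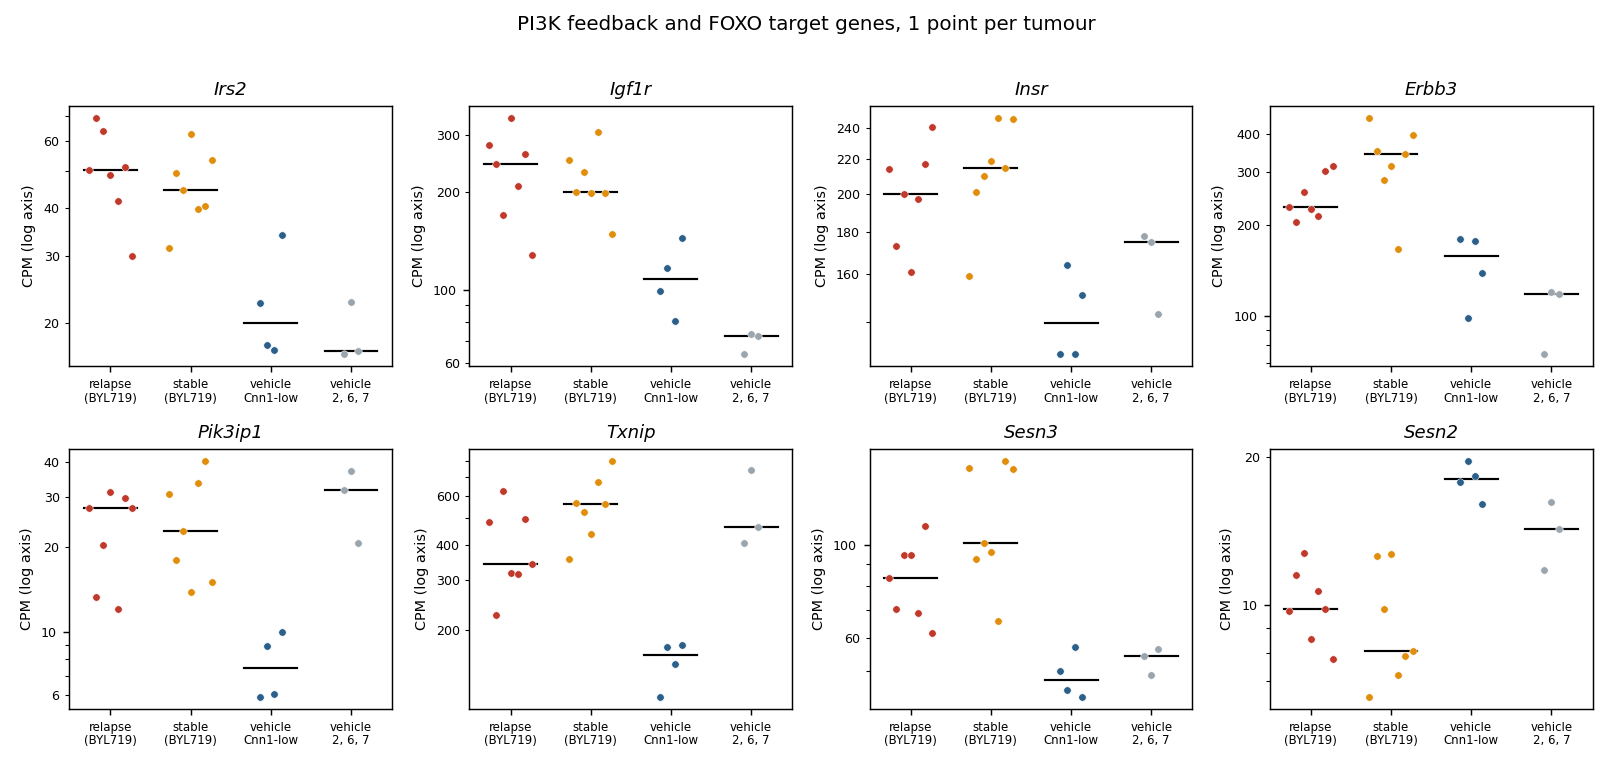
Level in each tumour (CPM scaled by TMM, log axis) of 8 genes of PI3K feedback and FOXO targets, with relapse, stable, Cnn1-low vehicle and the other 3 vehicle tumours from left to right; a black line is the group's median. Pik3ip1, Txnip and Sesn3 are higher in all 14 BYL719 tumours than in all 4 Cnn1-low vehicle tumours and Sesn2 is lower, while Pik3ip1 and Txnip in vehicle 2, 6 and 7 lie within the BYL719 range.

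The plot of feedback genes by tumour shows the medians of both treated groups on the same side of all 4 vehicle tumours. For Irs2, Insr, Igf1r and Erbb3 at least 1 BYL719 tumour lies within the range of the 4 vehicle tumours. For Pik3ip1 and Txnip, vehicle 2, 6 and 7 lie above the 4 Cnn1-low vehicle tumours. Vehicle 2 and 6 for Insr and vehicle 2 for Sesn2 also lie within the BYL719 range.

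Genes of cholesterol synthesis and uptake were lower in BYL719 tumours as a group. Of 25 tested, 18 were lower, none was higher and 7 did not pass, and the median log2 fold change was -0.93. The background was 3.40% of all genes lower. Of the 18 calls, 10 held in every fit that left out 1 tumour, among them Msmo1, Cyp51, Mvk, Fdft1, Sc5d, Hsd17b7, Hmgcs1 and Mvd. Without vehicle 3, where the summed level of the list was 4414 CPM, 10 members were lower. The sum was 516 to 994 CPM in the 14 BYL719 tumours, against 1449, 4414, 1238 and 1418 CPM in vehicle 1, 3, 4 and 5, and 849 to 1132 CPM in vehicle 2, 6 and 7.

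Msmo1 had 25.7 to 43.8 CPM in BYL719 tumours, median 39.9 CPM, against 116, 581, 88.7 and 113 CPM in vehicle tumours. The groups did not overlap, and vehicle 3 stood far above the other vehicle tumours. The log2 fold change was -2.58 (SE 0.30, adjusted p = 0.00043) with vehicle 3 and -1.5 (adjusted p = 4.84e-05) without it. Vehicle 2, 6 and 7 had 74.4, 47.6 and 78.3 CPM.

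Hmgcs1 had 54.5 to 173 CPM in BYL719 tumours, median 92.0 CPM, against 211, 565, 169 and 176 CPM in vehicle tumours. It fell by 1.53 (SE 0.25, adjusted p = 0.00205), and by 0.94 without vehicle 3 (adjusted p = 0.0268). All but 1 of the BYL719 tumours lay below every vehicle tumour. The call was lost with skeletal muscle as a covariate.

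The later steps of the pathway moved in the same direction. Cyp51, the sterol 14-demethylase, had 35.1 to 70.0 CPM in BYL719 tumours, median 51.8 CPM, against 113, 286, 94.9 and 110 CPM in vehicle tumours, and fell by 1.54 (SE 0.215, adjusted p = 0.000769). Fdft1, squalene synthase, had 22.1 to 32.7 CPM in BYL719 tumours, median 28.1 CPM, against 50.9, 74.8, 39.0 and 43.5 CPM in vehicle tumours, and fell by 0.90 (SE 0.13, adjusted p = 0.000846). In both genes all 14 BYL719 tumours lay below all 4 vehicle tumours. Mvk, mevalonate kinase, fell by 0.89 (SE 0.13, adjusted p = 0.000769), and Sc5d, a sterol desaturase, by 0.87 (SE 0.14, adjusted p = 0.00181), both without overlap. Without vehicle 3 the changes were -1.03 for Cyp51, -0.67 for Fdft1, -0.77 for Mvk and -0.63 for Sc5d.

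Members that did not pass were Ebp, Idi1, Sqle, Insig1, Srebf2, Tm7sf2 and Ggps1, with adjusted p-values from 0.058 to 0.581. Srebf2, the gene of the SREBP-2 factor, had -0.31. With the skeletal muscle score as a covariate, 7 members were lower, and with 1 tumour per title code 12 were.

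**Figure D3:**
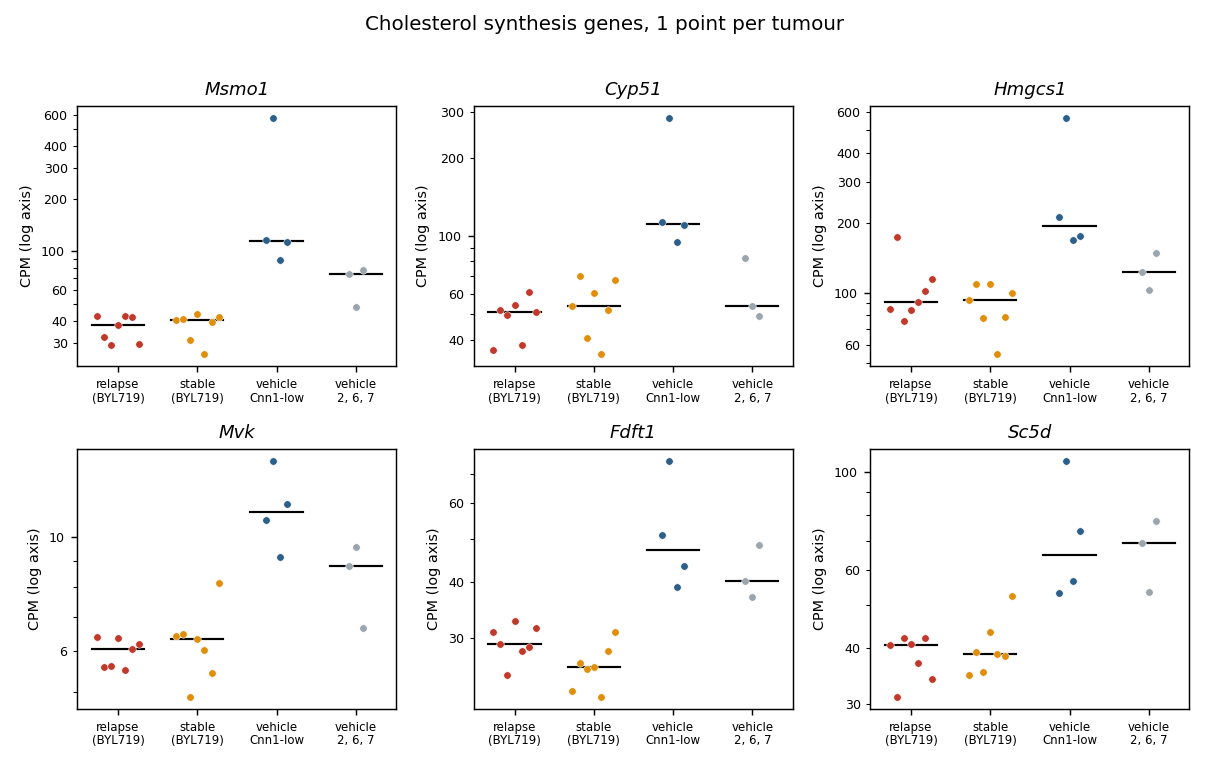
Level in each tumour (CPM scaled by TMM, log axis) of 6 genes of cholesterol synthesis, with relapse, stable, Cnn1-low vehicle and the other 3 vehicle tumours from left to right; a black line is the group's median. The 14 BYL719 tumours lie below the 4 Cnn1-low vehicle tumours except 1 tumour for Hmgcs1, and vehicle 3 is the highest point in all 6 panels.

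The plot of cholesterol genes by tumour shows a gap between BYL719 and Cnn1-low vehicle tumours that does not rest on vehicle 3 alone. For Msmo1, Sc5d and Fdft1 vehicle 2, 6 and 7 lie above all BYL719 tumours too. For Hmgcs1 all of them lie within the BYL719 range, as do vehicle 6 and 7 for Cyp51 and vehicle 7 for Mvk.

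The hypoxia list had 3 of 13 members lower and none higher, with a median of -0.63, and these 3 were lower in all 18 fits that left out 1 tumour. Egln3, a prolyl hydroxylase that is also a target of hypoxia-inducible factors, had 44.7 to 150 CPM in BYL719 tumours, median 99.1 CPM, against 399, 434, 224 and 319 CPM in vehicle tumours. The groups did not overlap. It fell by 1.89 (SE 0.29, adjusted p = 0.00139). Vehicle 2, 6 and 7 had 132, 59.9 and 106 CPM of Egln3, within the BYL719 range, and it was still called with all 7 vehicle tumours. Egln1, the main prolyl hydroxylase, fell by 0.63 (adjusted p = 0.00294), and Hif1a, whose protein it marks for degradation, by 0.82 (adjusted p = 0.00549). The call of Hif1a was lost with 1 tumour per title code (adjusted p = 0.0814), with the replicate block (0.0515) and with muscle as a covariate (0.0816). Vegfa, Adm, Bnip3 and Ndrg1 were among the 10 that did not pass, with log2 fold changes of -0.66, -0.87, -0.47 and -0.26. The carbonic anhydrase gene Car12, chosen after its values were seen, had 26.3 to 99.8 CPM in BYL719 tumours, median 72.4 CPM, against 168, 399, 168 and 229 CPM in vehicle tumours. It fell by 1.85 (SE 0.26, adjusted p = 0.000825) without overlap. Slc2a1, the glucose carrier GLUT1, fell by 1.09 (adjusted p = 0.0248), but its adjusted p was 0.0611, 0.0988 and 0.066 without vehicle 1, 3 and 5.

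The 6 genes of lowest p outside the cholesterol list, predicted genes aside, separated the groups without overlap and held in every fit that left out 1 tumour. Hcar2, a receptor for niacin and ketone bodies, had 1.58 to 4.83 CPM in BYL719 tumours, median 2.86 CPM, against 9.63, 12.4, 8.34 and 11.2 CPM in vehicle tumours, a change of -1.84 (SE 0.22, adjusted p = 0.000552). Vehicle 2 and 6, at 2.55 and 1.76 CPM, lay within the BYL719 range. Ero1l, an oxidase of protein folding in the endoplasmic reticulum, fell by 1.42 (adjusted p = 0.000621). Its level in vehicle 2 and 6, 105 and 56.2 CPM, lay within the BYL719 range of 51.6 to 145 CPM. Ltb4r2, a leukotriene B4 receptor, fell by 2.10 (adjusted p = 0.000769). Its level in vehicle 2 and 6, 0.319 and 0.65 CPM, lay within the BYL719 range of 0.261 to 0.726 CPM.

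The set also held 3 genes that were higher. Pcmtd2 had 119 to 237 CPM in BYL719 tumours, median 166 CPM, against 80.6, 71.7, 70.0 and 76.6 CPM in vehicle tumours, a change of 1.16 (SE 0.15, adjusted p = 0.000698). Vehicle 2, 6 and 7 had 83.7, 97.6 and 78.0 CPM, all below the 14 BYL719 tumours. Auh, an enzyme of leucine breakdown that also binds RNA, rose by 0.78 (adjusted p = 0.000769), and Ctdsp2, a phosphatase, by 0.85 (adjusted p = 0.000621). With vehicle 2, 6 and 7 added, Ctdsp2 was higher by 0.42 (adjusted p = 0.0325). Klf11, a transcription factor chosen after its values were seen, had 35.7 to 75.3 CPM in BYL719 tumours, median 47.3 CPM, against 21.7, 17.1, 25.5 and 19.2 CPM in vehicle tumours, and rose by 1.25 (SE 0.20, adjusted p = 0.00181).

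The lowest fold changes of all rested on vehicle 3. They belong to Far2, Aadacl3, Rnase2b, Elovl3, Cyp17a1, Sec14l4, Acoxl and Elovl4, many of which act in lipid metabolism. Far2, a fatty acyl-CoA reductase, had 0.788 to 2.98 CPM in BYL719 tumours, median 1.40 CPM, against 1.42, 1164, 1.14 and 1.42 CPM in vehicle tumours. Among these 4, vehicle 3 alone was high, and the other 3 lay within the BYL719 range. Outside the comparison, vehicle 2, 6 and 7 had 2.42, 4.46 and 63.3 CPM of Far2 and 0.228, 0.882 and 35.3 CPM of Elovl3. With the 6 vehicle tumours other than vehicle 3, the edgeR change was -2.93 (adjusted p = 0.00328) for Far2 and -1.99 (adjusted p = 0.206) for Elovl3. In the comparison with the 4 vehicle tumours, the log2 fold change of Far2 was -7.47 (SE 1.01, adjusted p = 0.000769). Without vehicle 3 it was 0.30 (adjusted p = 0.659). The 17 adipocyte markers summed to 284 to 2837 CPM in BYL719 tumours, against 252, 1657, 228 and 301 CPM in vehicle 1, 3, 4 and 5, so that vehicle 3 was the highest of the 4 in these too. Relapse 1 and 7 had 2837 and 2111 CPM of these markers, with Far2 at 1.64 and 0.788 CPM and Elovl3 at 10 and 4.84 CPM. The part of the adipocyte markers in the changes that rest on vehicle 3 was not tested.

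Elovl3, a fatty acid elongase, had 0 to 10 CPM in BYL719 tumours, against 0.275, 286, 0.218 and 0.321 CPM in vehicle tumours, and its change of -5.50 became 2.51 without vehicle 3. For Elovl4 the change of -3.94 became -1.47 (adjusted p = 0.184), and for Rnase2b -5.57 became -2.50 (adjusted p = 0.0854). In both of these genes all 14 BYL719 tumours lay below all 4 vehicle tumours. Without vehicle 3 the other 4 had -0.03 (Aadacl3), -0.42 (Cyp17a1), 1.5 (Sec14l4) and 0.50 (Acoxl), none of them called. Elovl6 had 2299 CPM in vehicle 3, and its change of -3.34 became 0.52. In 27 of the 547 genes called lower, vehicle 3 was at least 10 times the next of the 4 vehicle tumours (after adding 0.1 CPM), and in 111 at least 2 times. In the list of fatty acid synthesis, 2 of 19 genes were lower, Elovl6 and Scd2. Scd2, a stearoyl-CoA desaturase, did not rest on vehicle 3. It had 397 to 1035 CPM in BYL719 tumours, median 712 CPM, against 1527, 1261, 1883 and 1269 CPM in vehicle tumours and fell by 1.01 (SE 0.18, adjusted p = 0.00346). In vehicle 6 and 7 the level of Scd2 was 1029 and 892 CPM, within the BYL719 range. Fasn, fatty acid synthase, had a change of -0.12 (95% interval -1.11 to 0.86, adjusted p = 0.899).

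**Figure D4:**
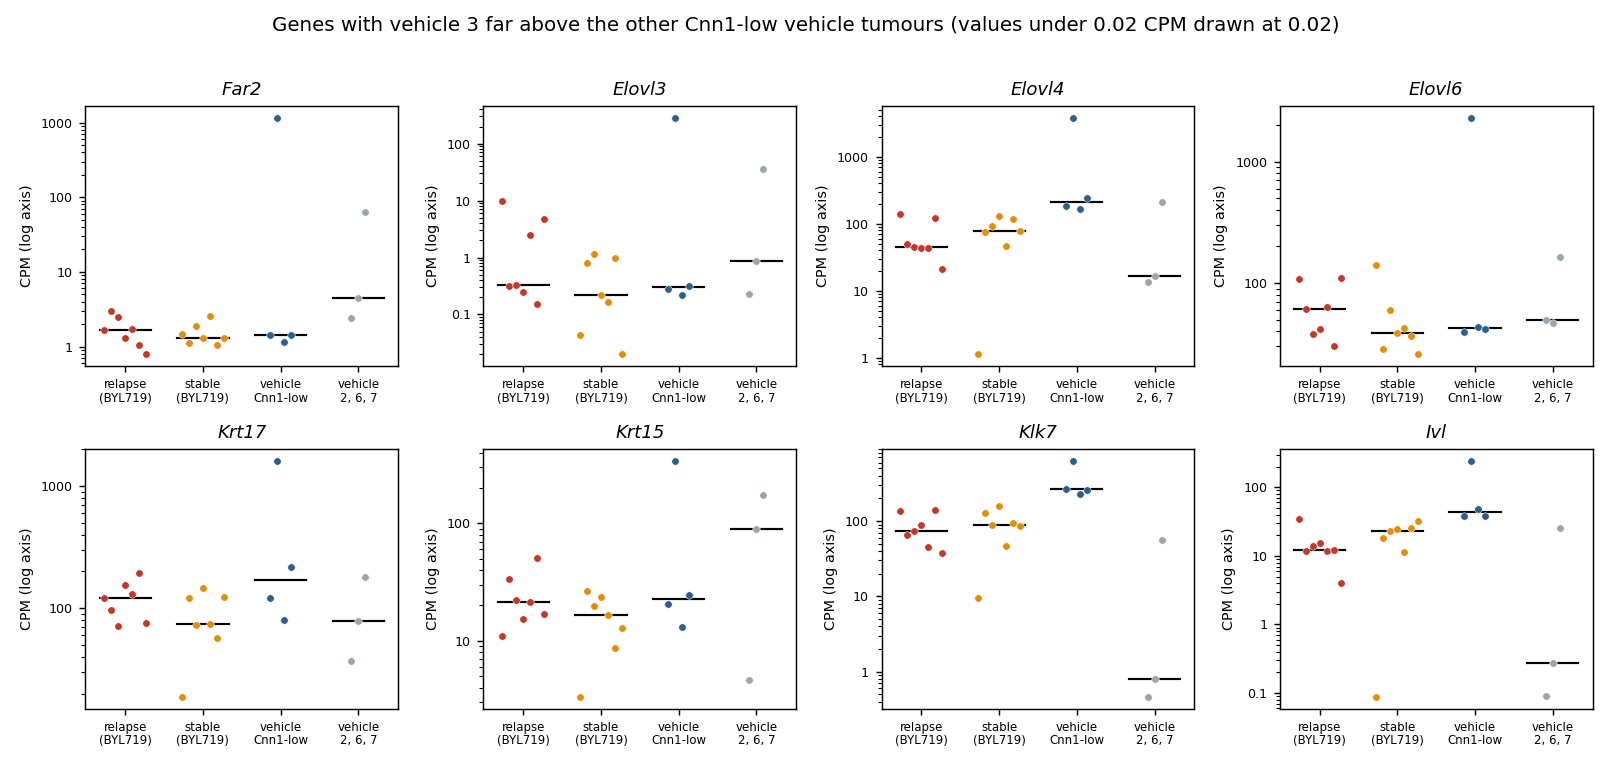
Level in each tumour (CPM scaled by TMM, log axis; values under 0.02 CPM are drawn at 0.02) of 8 lipid, keratin and squamous genes, with relapse, stable, Cnn1-low vehicle and the other 3 vehicle tumours from left to right; a black line is the group's median. Vehicle 3 is the highest of the 4 Cnn1-low vehicle tumours in every panel, at 1164 CPM for Far2, where the other 3 are at 1.14 to 1.42 CPM.

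The plot of lipid, keratin and squamous genes shows 2 kinds of pattern. For Far2, Elovl6 and Krt15 the other 3 Cnn1-low vehicle tumours lie within the BYL719 range, and for Elovl4, Klk7 and Ivl they lie above it.

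Basal keratins and squamous genes were lower in part. Of 14 basal genes 4 were lower (Krt17, Krt15, Krt14 and Krt6a) and none was higher, with a median of -0.78. Without vehicle 3, 0 of the 14 were called. Krt14 had 105 to 1028 CPM in BYL719 tumours, median 606 CPM, against 980, 2506, 773 and 1396 CPM in vehicle tumours, a change of -1.31 (SE 0.35, adjusted p = 0.0333). Its adjusted p was 0.0563, 0.195 and 0.0753 without vehicle 1, 3 and 5. Vehicle 2, 6 and 7 had 84.8, 171 and 340 CPM of Krt14, below the 4 Cnn1-low vehicle tumours, and with all 7 vehicle tumours neither Krt14 (-0.66, adjusted p = 0.317) nor Krt6a (-0.89, adjusted p = 0.367) was called. Krt17 and Krt15 fell by 2.27 and 2.30, which became -0.42 and 0.06 without vehicle 3. Krt6a fell by 1.63 and was not called in 10 of the fits that left out 1 tumour, with adjusted p-values of up to 0.211 (without vehicle 3).

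Of 17 genes of the cornified envelope and squamous cells, 5 were lower, with a median of -1.14; without vehicle 3, 2 were. Klk7, an epidermal protease, had 9.46 to 159 CPM in BYL719 tumours, median 86.7 CPM, against 267, 635, 229 and 261 CPM in vehicle tumours, with no overlap. It fell by 2.01 (adjusted p = 0.00915), and its adjusted p was 0.075 without vehicle 3. Ivl, involucrin, fell by 2.42 (adjusted p = 0.0228), and by 1.27 without vehicle 3 (adjusted p = 0.254). Sprr2a1 fell by 2.23 and Tgm1 by 1.00, and neither was called without vehicle 1; Sprr2a1 was also not called without vehicle 4, nor Tgm1 without vehicle 5. The fifth, Krtdap, fell by 2.29 (adjusted p = 0.0358). None of the 5 calls held in every fit that left out 1 tumour. The list summed to 91.3 to 1590 CPM in BYL719, 1224 to 3748 CPM in Cnn1-low vehicle tumours and 25.4 to 305 CPM in vehicle 2, 6 and 7. With all 7 vehicle tumours none of these genes was called by edgeR.

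Some ligands and binding proteins of the IGF system were higher. Of 10 IGF ligands and binding proteins 3 were higher and none was lower, with a median of 0.44. Igf2, a growth factor, had 1.39 to 47.1 CPM in BYL719 tumours, median 23.7 CPM, against 1.15, 3.31, 3.67 and 3.58 CPM in vehicle tumours. All but 1 of the BYL719 tumours lay above every vehicle tumour. It rose by 2.86 (SE 0.64, adjusted p = 0.0145), with adjusted p-values of 0.0568 and 0.0546 without vehicle 1 and 3. Igfbp6 rose by 2.27 (adjusted p = 0.0156), but its level was 11.5 and 41.1 CPM in vehicle 2 and 6, and with all 7 vehicle tumours its change was -0.002. Its adjusted p was 0.0636 and 0.0546 without vehicle 1 and 4. Igfbp4 rose by 1.31 (adjusted p = 0.0233), with 0.0985, 0.0781 and 0.0631 without vehicle 1, 4 and 5.

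The highest fold changes are in part muscle genes. Smpx (4.75, adjusted p = 0.0473), Eef1a2 (3.73, adjusted p = 0.0374) and Hrc (3.69, adjusted p = 0.0484) are expressed in striated muscle. With the skeletal muscle score as a covariate their changes were 1.43 (adjusted p = 0.193) for Smpx, 1.45 (0.12) for Eef1a2 and 0.38 (0.622) for Hrc, none of them called. Smpx had 0.0498 to 9.71 CPM in BYL719 tumours, against 0, 0, 0.218 and 0.229 CPM in vehicle tumours. Others are Angptl1 (3.91), Vmn2r96 (3.59), Wnt16, a WNT ligand (3.58), and Lao1 (3.55). None of these 7 was called without vehicle 1 or without vehicle 3, where their adjusted p-values lay between 0.0923 and 0.139. Smpx and Hrc were each not called in 13 of the 18 fits that left out 1 tumour, and Vmn2r96 in 9. Vmn2r96 had 2.14, 3.34 and 8.31 CPM in vehicle 2, 6 and 7, within the BYL719 range of 0.392 to 13.9 CPM. With all 7 vehicle tumours its change by edgeR was 1.15 (adjusted p = 0.309), while Smpx, Eef1a2, Hrc, Angptl1, Wnt16 and Lao1 were called there. Osr2, a transcription factor, and Hhip, an inhibitor of Hedgehog signalling, both chosen after their values were seen, rose by 3.27 (adjusted p = 0.00349) and 3.32 (adjusted p = 0.00405) in every fit that left out 1 tumour. Osr2 had 0.387 to 2.94 CPM in BYL719 tumours, against 0.183, 0.142, 0.0873 and 0.0918 CPM in vehicle tumours. Hhip had 11.5 CPM in vehicle 2, and with all 7 vehicle tumours its change was 1.05 (adjusted p = 0.219).

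Markers of fibroblasts and matrix had 4 of 25 members higher and none lower, with a median of 1.01. With all 7 vehicle tumours the median was 0.19, with 5 higher and 4 lower, and with muscle as a covariate or with the replicate block none was called by edgeR. The list summed to 3370 to 13752 CPM in BYL719, 3065 to 7690 CPM in Cnn1-low vehicle tumours and 8481 to 16391 CPM in vehicle 2, 6 and 7. Mfap5, a microfibril protein, had 7.99 to 33 CPM in BYL719 tumours, median 18.1 CPM, against 3.76, 7.19, 3.84 and 7.25 CPM in vehicle tumours and rose by 1.76 (SE 0.36, adjusted p = 0.00908), in every fit that left out 1 tumour. Its call was lost with 1 tumour per title code (adjusted p = 0.0974), with the replicate block (0.0524) and with muscle as a covariate (0.0654). Fbln1, fibulin 1, rose by 1.38 (adjusted p = 0.0352), a call lost without each of the 4 vehicle tumours in turn. In the macrophage list 1 of 17 was higher, the chemokine receptor Ccr2 (1.86, adjusted p = 0.0316), and 1 was lower, the arginase Arg1 (-1.60, adjusted p = 0.0105). In a list of this size, 1 call each way is near the shares over all genes, 3.17% higher and 3.40% lower. Arg1 had 54.6 to 252 CPM in BYL719 tumours, against 653, 109, 555 and 509 CPM in vehicle tumours, and its adjusted p was 0.0576 without vehicle 1. The call of Ccr2 was likewise lost without each of the 4 vehicle tumours in turn.

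Of 12 tested genes of the neutrophil list, which also holds chemokine genes and the cytokine gene Il1b, 3 were lower. They were Cxcl2, S100a8 and Il1b, and the median was -0.97. S100a8, a calprotectin subunit, had 6.87 to 99.6 CPM in BYL719 tumours, against 162, 57, 108 and 208 CPM in vehicle tumours, a change of -1.73 (adjusted p = 0.0271), and the adjusted p was 0.0933, 0.0536 and 0.109 without vehicle 1, 4 and 5. Cxcl2 fell by 1.59 (adjusted p = 0.0135; 0.0754 without vehicle 5), and Il1b by 1.11 (adjusted p = 0.0413) with the call lost in 9 of the 18 fits. With all 7 vehicle tumours none of the 12 was called by edgeR. The list, which shares Ltf with the milk protein list, summed to 872 to 10207 CPM in BYL719 tumours and 676 to 11881 CPM in vehicle tumours. The sum is therefore not a measure of neutrophils alone. Sdc1, syndecan 1 of epithelial and plasma cells, fell by 0.79 (adjusted p = 0.0369), and was called in 10 of the 18 fits. Vehicle 2, 6 and 7 had 85.3, 132 and 109 CPM of Sdc1, within the BYL719 range of 72.8 to 261 CPM, and with all 7 vehicle tumours its change was -0.31 (adjusted p = 0.428). Nqo1, an NRF2 target, fell by 1.13 (adjusted p = 0.0247), with 0.0556, 0.168 and 0.054 without vehicle 1, 3 and 5. It was the only one of 28 antioxidant genes called, beside 6.57% of all genes called.

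No gene of the proliferation list passed. Of 28 S phase and mitosis genes 0 were called by edgeR, 2 had an unadjusted p under 0.05 and 2 were called by DESeq2. Mki67 had 351 to 1193 CPM in BYL719 tumours, median 963 CPM, against 1102, 798, 891 and 901 CPM in vehicle tumours, and a change of -0.04 (95% interval -0.52 to 0.44, adjusted p = 0.938). Vehicle 2, 6 and 7 had 213, 150 and 385 CPM of Mki67, and with all 7 vehicle tumours its change was 0.49 (adjusted p = 0.274). The list summed to 892 to 4543 CPM in BYL719 and 2129 to 2814 CPM in Cnn1-low vehicle tumours. In vehicle 2, 6 and 7 it summed to 654 to 991 CPM. Ccnd1, cyclin D1, fell by 0.85 (SE 0.21, adjusted p = 0.0247), with adjusted p-values of 0.113, 0.0642 and 0.101 without vehicle 1, 4 and 5. Dusp6, a feedback phosphatase of ERK, had a change of 0.62 (95% interval -0.44 to 1.68, adjusted p = 0.479), with 63 to 536 CPM in BYL719 tumours and 59.7 to 158 CPM in vehicle tumours. By edgeR 0 genes were called among 24 interferon, 27 respiratory chain, 17 TGF-beta and 18 milk protein genes, with 1, 1, 6 and 4 at an unadjusted p under 0.05 and 0, 0, 2 and 2 called by DESeq2.

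**Figure D5:**
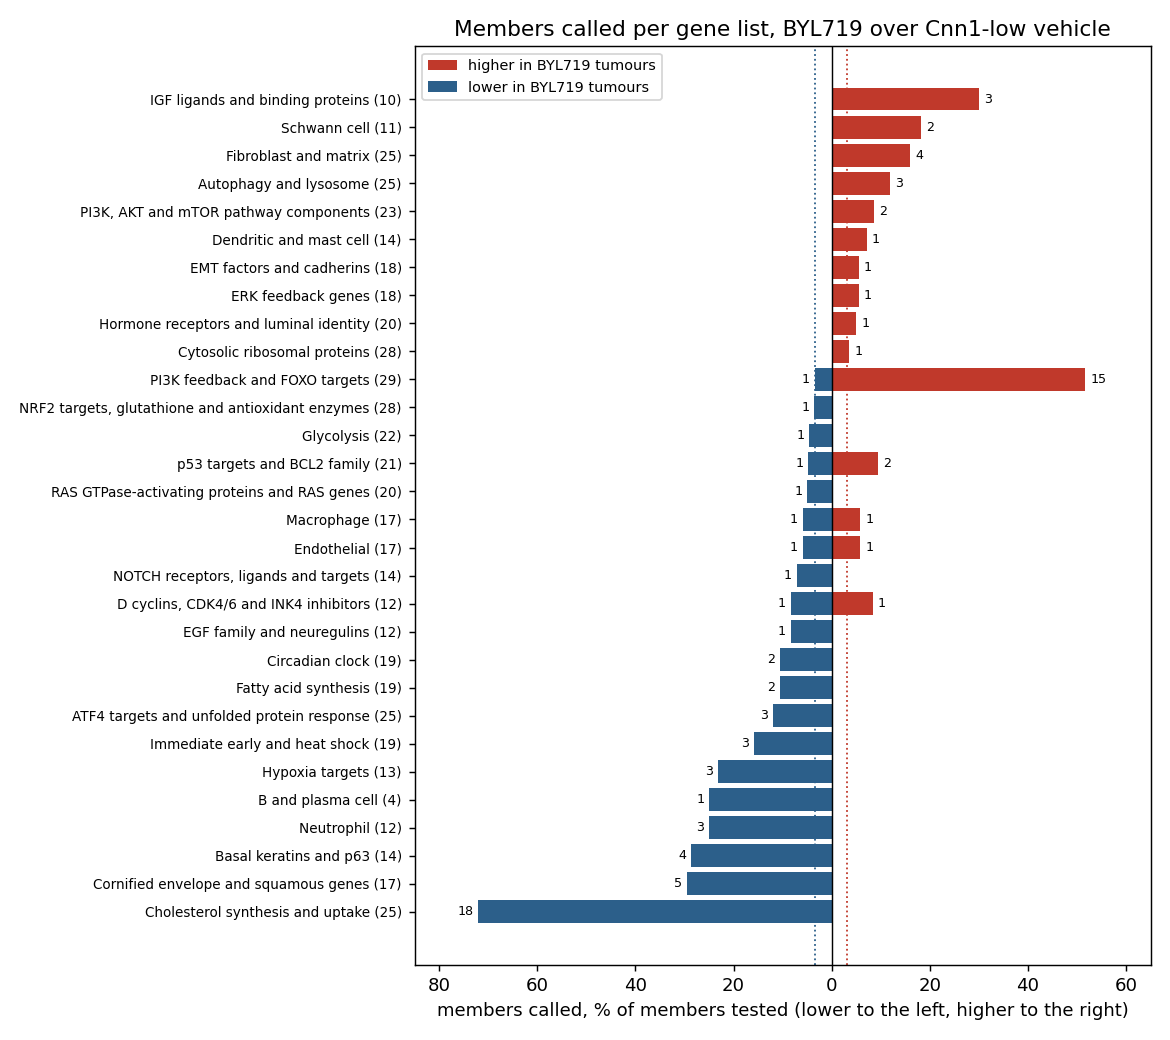
Share of each list's tested members (number in parentheses) called higher, to the right, and lower, to the left, in BYL719 tumours, with the number called at the end of each bar and dotted lines at the shares over all genes tested, 3.17% higher and 3.40% lower. The cholesterol list, with 18 of 25 lower, and the PI3K feedback and FOXO list, with 15 of 29 higher, have the longest bars; lists without a called member, or with fewer than 4 tested, and the list used to choose tumours are not drawn.

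The chart of lists sets the counts of called members beside the background shares. The lists of cholesterol genes and of feedback and FOXO genes have the highest shares of members called among the lists drawn.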

How the data were processed

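RNA was sequenced from 21 tumours of WAP-Cre/PIK3CA-H1047R mice as a stranded polyA library with single-end reads of 50 nucleotides, per the labels' protocols. The authors deposited raw counts per gene, with Entrez identifiers and symbols. The submitters' processing notes name edgeR, Picard 2.9.2, STAR 2.5.2a and SAMtools 1.3.1 with mm10. Which step each served, the annotation and the strand setting are not stated in these sources, so reads of overlapping or near-identical genes may be shared. Of 24028 genes, 1175 had 0 counts in every tumour and 14 had no symbol. In 10202 lines of the table an extra leading cell was dropped.

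The 14 BYL719 tumours were compared with the 4 vehicle tumours in R 4.3.3 with edgeR 4.0.16: genes filtered by group (filterByExpr), scaled by TMM, and fitted with the quasi-likelihood method (F test), with Benjamini-Hochberg adjustment over 16081 genes and no covariates. SE is the absolute log2 fold change over the root of F. Printed CPM are TMM-scaled over all 21 tumours, except the CPM of the Cnn1 rule. Total counts per tumour limit precision, and low CPM values are the least certain. No 2 tumours of a group agreed within sampling noise (lowest chi-square per degree of freedom 17.6). Alternatives used DESeq2 1.42.0 and limma 3.58.1. The test was tested on simulated data.

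The tumours, the 42 gene lists and the tests were chosen with earlier results of these data known. Genes were named by a rule (18 fixed genes, the 8 highest and 8 lowest log2 fold changes, the 8 lowest p-values, and up to 4 of lowest p from lists with at least 4 tested and 25% called), for the fold changes only where the mean log2 CPM reached 1, and leaving out predicted genes and immunoglobulin or T cell receptor segments. A further 21 were added after their values were seen, from a list that was first longer and then shortened, and members of lists are named for their counts. Some genes are not reported here, though counts include them. RefSeq names and promoters (GRCm38.p6) matched 23968 genes by Entrez identifier.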

Additional observations from a re-analysis of the deposited data

Results flagged for a closer look

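Of 237 sets of values (79 genes in the relapse, stable and Cnn1-low vehicle groups), 41 had a highest or lowest tumour far from the rest of its group, in 36 genes. Chance gives about 1 set in 20 where values are normally distributed, which CPM need not be. The 79 genes include some picked by fold change or p-value in these data and some named after their values were seen. The share of sets flagged therefore describes that list of genes, and no excess over chance is read from it.

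In vehicle 3, 17 genes stood apart. Levels there were 1164 CPM for Far2, 132 CPM for Aadacl3, 31.2 CPM for Rnase2b, 286 CPM for Elovl3, 136 CPM for Cyp17a1, 194 CPM for Sec14l4, 36.4 CPM for Acoxl, 3833 CPM for Elovl4 and 2299 CPM for Elovl6. Of the sterol genes, Msmo1 had 581 CPM, Cyp51 286 CPM and Hmgcs1 565 CPM. The others were Ltb4r2 at 4.54 CPM, Krt17 at 1614 CPM, Krt15 at 342 CPM, Klk7 at 635 CPM and Ivl at 244 CPM. In vehicle 1, Igf2 was low at 1.15 CPM.

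In stable 1, Nf1 had 598 CPM, Dusp6 536 CPM, Elovl6 141 CPM and Cxcl2 4.01 CPM, all high for the stable group, while Foxo1 at 37.3 CPM and Cdkn1b at 125 CPM were low. In stable 5, high levels were 8.54 CPM for Smpx, 35.8 CPM for Angptl1, 33.9 CPM for Eef1a2, 34.6 CPM for Hrc, 142 CPM for Ckm, 7.76 CPM for Sec14l4, 26.2 CPM for Igfbp6, 15.1 CPM for Il1b, 110 CPM for Fbln1 and 103 CPM for Ccr2. In the relapse group, relapse 1 stood apart for Mki67 (504 CPM, low), Rnase2b (0.61 CPM) and Ivl (33.9 CPM), relapse 2 for Wnt16 (24.2 CPM) and Hmgcs1 (173 CPM), and relapse 4 for Hcar2 (4.83 CPM) and Krt6a (457 CPM).

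Cnn1 had 850, 804 and 398 CPM (TMM-scaled) in vehicle 2, 6 and 7, which the comparison left out by rule.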

How the results depend on the processing

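The 1056 calls (509 higher, 547 lower) were recomputed under 17 planned settings, 18 fits without 1 tumour, and 2 settings chosen after seeing the data. The number called was 299 to 2692 over the fits without 1 tumour, with 141 to 1286 higher and 155 to 1406 lower. Genes called, higher and lower, were 3326, 1436 and 1890 with all 7 vehicle tumours, 2198, 1324 and 874 with DESeq2's Wald test, 4875, 2340 and 2535 with voom and sample quality weights, 527, 314 and 213 for relapse alone, 76, 19 and 57 with 1 tumour per title code, 254, 155 and 99 with a skeletal muscle covariate, and 446, 224 and 222 at an absolute log2 fold change of at least 1. They were 3177, 1345 and 1832 with the 6 vehicle tumours other than vehicle 3, and 2622, 1314 and 1308 without relapse 4 and stable 1, both chosen after seeing the data. With title code as a random effect in voom, 306 were higher. Under each remaining setting other than the replicate block, given next, the count was within 1.5 times. The cause was not tested. The share of calls that were higher, 48.2%, was 38.4% with no filter, 60.2% with DESeq2, 59.6% for relapse alone, 36.2% with counts summed per code, 25% with 1 tumour per code and 61% with muscle as a covariate, and 36.6% and 37.1% without vehicle 1 and 4. DESeq2 gave no adjusted p for 107 genes, of which edgeR called 46.

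The replicate numbers do not pair the tumours: of 15 same-numbered pairs 3 had a correlation over 0.1 (range -0.336 to 0.243). With the replicate number as a block, 178 genes were called, 98 higher and 80 lower.

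For 82 named genes, 2500 values kept their direction and side of the threshold, 402 lost the call, 6 gained it and 27 changed sign. The changes of sign were as follows. Nf1 had -0.196 with all 7 vehicle tumours, -0.0508 in relapse alone and -0.242 with 6 vehicle tumours. Mki67 had 0.49 with 7 and 0.553 with 6 vehicle tumours, 0.00614 in stable alone, 0.215 with muscle, and 0.00981, 0.0214 and 0.0557 without relapse 1, stable 5 and vehicle 1. Fasn had 0.314 with 7 and 0.658 with 6 vehicle tumours, 0.0123 with voom weights, 0.206 in relapse alone, 0.0897 with summed codes, 0.233 without vehicle 3 and 0.0524 without relapse 4 and stable 1. Igfbp6 had -0.00207 with 7 and -0.167 with 6 vehicle tumours. With voom weights Elovl3 had 0.175 and Sec14l4 0.267. Over the fits without 1 tumour, the lowest values were -0.105 for Mki67, -0.361 for Fasn, -7.88 for Far2, -6.3 for Elovl3, -5.1 for Sec14l4, -4.58 for Acoxl, -2.66 for Krt15 and -3.73 for Elovl6. Without vehicle 3 the values were 0.302 for Far2, 2.51 for Elovl3, 1.5 for Sec14l4, 0.497 for Acoxl, 0.0628 for Krt15 and 0.523 for Elovl6.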
